A study of Mus musculus with 49 samples.

Results

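Ccl3, Ccl4, Ccl5 and Ccl6 are CC chemokines, small secreted proteins that direct white blood cells, and their RNA was followed in blood mononuclear cells of mice with lung injury. Clones were taken by gene name, which gave 7 clones for the 4 genes out of 7739 clones for 5770 genes on the array. Ccl3, Ccl5 and Ccl6 had 2 clones each and Ccl4 had 1, and the brighter clone of a gene is called its lead clone. Wild-type female C57Bl/6J mice aged 7 weeks were anesthetized with xylazine and ketamine and received one tail vein injection. OA mice received 20 µl of oleic acid (OA), at 1.2 µl per g of body weight. Oleic acid is a fatty acid whose intravenous injection is a standard way to cause acute lung injury in animals. Serum mice, the controls, received physiological serum. Blood cells were taken at 1, 1.5, 3, 4, 18 or 24 h, each from a different set of mice, with 4, 6, 4, 4, 4 and 4 OA mice and 2, 1, 2, 2, 2 and 2 serum mice at these times. RNA was amplified, labelled with 33P and hybridised to 49 nylon cDNA arrays, 1 colour each. The sample labels give the tissue as PBMC (peripheral blood mononuclear cells), while the extraction text names lung beside a kit made for mouse blood.

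Ccl3 and Ccl4 are made by activated macrophages, monocytes and lymphocytes and act on receptors of leukocytes, among them Ccr1 for Ccl3. Ccl5 is made by T cells, natural killer cells and platelets and acts through Ccr1 and Ccr3 among other receptors. Ccl6 is a chemokine of rodents that is made by myeloid cells and acts through Ccr1. In lung injury such chemokines are known for drawing neutrophils, monocytes and T cells out of the blood into the tissue.

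The 4 genes lie close together on mouse chromosome 11, in the order Ccl5, Ccl9, Ccl6, Ccl3 and Ccl4 among the protein-coding genes of the RefSeq annotation of GRCm38.p6. The promoters of Ccl6 and Ccl3 are shown because Ccl6 was the member whose 2 clones both changed over time and Ccl3 is the member next to it. Each window runs from 250 bases before to 50 bases after the start site on the minus strand, at chr11:83593038-83593337 for Ccl6 and chr11:83649329-83649628 for Ccl3 (RefSeq, GRCm38.p6). Capitals mark matches on either strand to the TATA box letters TATAA, to the ETS factor core letters GAGGAA and CAGGAA, and to the C/EBP letters TTNNGNAA.
Ccl6: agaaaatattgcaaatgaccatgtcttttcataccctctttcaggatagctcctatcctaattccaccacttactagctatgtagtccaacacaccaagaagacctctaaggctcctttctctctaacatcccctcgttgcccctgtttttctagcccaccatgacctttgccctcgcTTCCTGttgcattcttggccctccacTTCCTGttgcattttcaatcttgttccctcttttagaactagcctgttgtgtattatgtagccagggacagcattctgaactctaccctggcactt
Ccl3: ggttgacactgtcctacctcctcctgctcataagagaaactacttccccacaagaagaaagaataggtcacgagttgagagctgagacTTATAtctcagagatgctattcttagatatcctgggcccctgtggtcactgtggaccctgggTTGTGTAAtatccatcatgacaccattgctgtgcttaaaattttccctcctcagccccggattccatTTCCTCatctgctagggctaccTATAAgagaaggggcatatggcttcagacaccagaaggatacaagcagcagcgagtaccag
The Ccl6 window held 2 matches to CAGGAA, at positions -72 and -46 from the start site, and none to the other motifs. Both matches lay inside a 14-base run, cttcctgttgcatt, which occurred at -73 and again at -47. An exact repeat of at least 14 bases occurred in 4.41% of 3286 promoters sampled from the same table. The Ccl3 window held TATAA at -11 and, on the other strand, at -162, GAGGAA at -33 on the other strand and TTNNGNAA at -100. Of 32851 mouse promoter windows of this length, 24.9% held TATAA, 28.3% GAGGAA, 30.6% CAGGAA and 40.7% TTNNGNAA. Neither window held the NF-kB motif searched or the AP-1 letters TGANTCA. A match is a run of letters and was not tested as a site.

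Signals are given as log2 of the quantile-normalized spot intensity, with the arrays of a mouse averaged, so that 37 mice give 1 value each. A clone was called well above background where its intensity passed the median of the array's empty spots by more than 2.6 robust standard deviations. Both Ccl5 clones and both Ccl6 clones passed on 49 of 49 arrays, the Ccl3 lead clone on 48, the second Ccl3 clone on 31 and Ccl4 on 5. The median clone intensity of an array ranged from 83 to 364, and 41.8% to 57.88% of clones per array were well above background. For the 12 mice with 2 arrays, the median difference between the arrays was 0.0847 log2 units for the Ccl6 lead clone, 0.0848 for the Ccl3 lead clone, 0.294 for the Ccl5 lead clone and 0.328 for Ccl4. On the main axis of variation over all clones, which held 36.2% of the variance, 7 mice stood apart with scores of at most -38.2, against at least -6.7 in all others. They were mouse 7 at 3 h, mice 2 and 3 at 4 h and mouse 2 at 18 h among OA mice, and both mice at 4 h and mouse 1 at 18 h among serum mice. These 7 mice were picked, and the fit without them was added, after the data were seen. Values without them are given beside most changes over time of Ccl6, Ccl3 and Ccl5 and beside the late comparison of OA with serum mice. The T cell markers of the tissue label were present, with 10 of 17 measured genes well above background on at least 50% of the arrays. Of 13 monocyte and macrophage markers measured 8 passed, but Cd14, Itgam and Vcan passed on no array, and 8 of 9 neutrophil markers passed as well. In these bulk samples fewer cells of a type and less RNA per cell cannot be told apart.

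Ccl6 changed over time in OA mice. Its group means were highest at 1.5 and 3 h, low at 4 h, in between at 18 h and lowest at 24 h. The F test below is of any change and does not test this order. From 1 to 1.5 h the difference was 0.77 (SE 0.323) for the lead clone and 0.34 (SE 0.345) for the second. Neither passed the threshold (limma). The lead clone's means at 4 and 24 h differed by 0.128, less than the pooled spread within groups of 0.522. The 4 OA mice had log2 signals of 9.74, 9.84, 10.65 and 10.15 at 1 h. The 6 OA mice at 1.5 h had 9.88, 11.03, 11.62, 11.44, 10.33 and 10.87, and the 4 at 3 h had 10.78, 11.07, 11.44 and 9.92. All 4 OA mice at 4 h were below every OA mouse at 3 h, at 8.80, 9.36, 9.24 and 9.30. At 18 h the OA mice lay close together, at 10.11, 10.24, 10.16 and 9.92. At 24 h they were all lower again, at 9.02, 8.94, 9.45 and 8.79. The moderated F test of limma over the 6 times in OA mice gave F = 10.6 and an adjusted p of 0.00214 for the lead clone, and F = 4.48 with an adjusted p of 0.0395 for the second clone. By this test 12.1% of all 7739 clones were called, so a change over time was common in these OA mice. The call held in 57 of 57 alternative settings, the second clone and the fit without the 7 mice that stand apart (F = 11.6, adjusted p = 0.00122) among them.

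**Figure D1:**
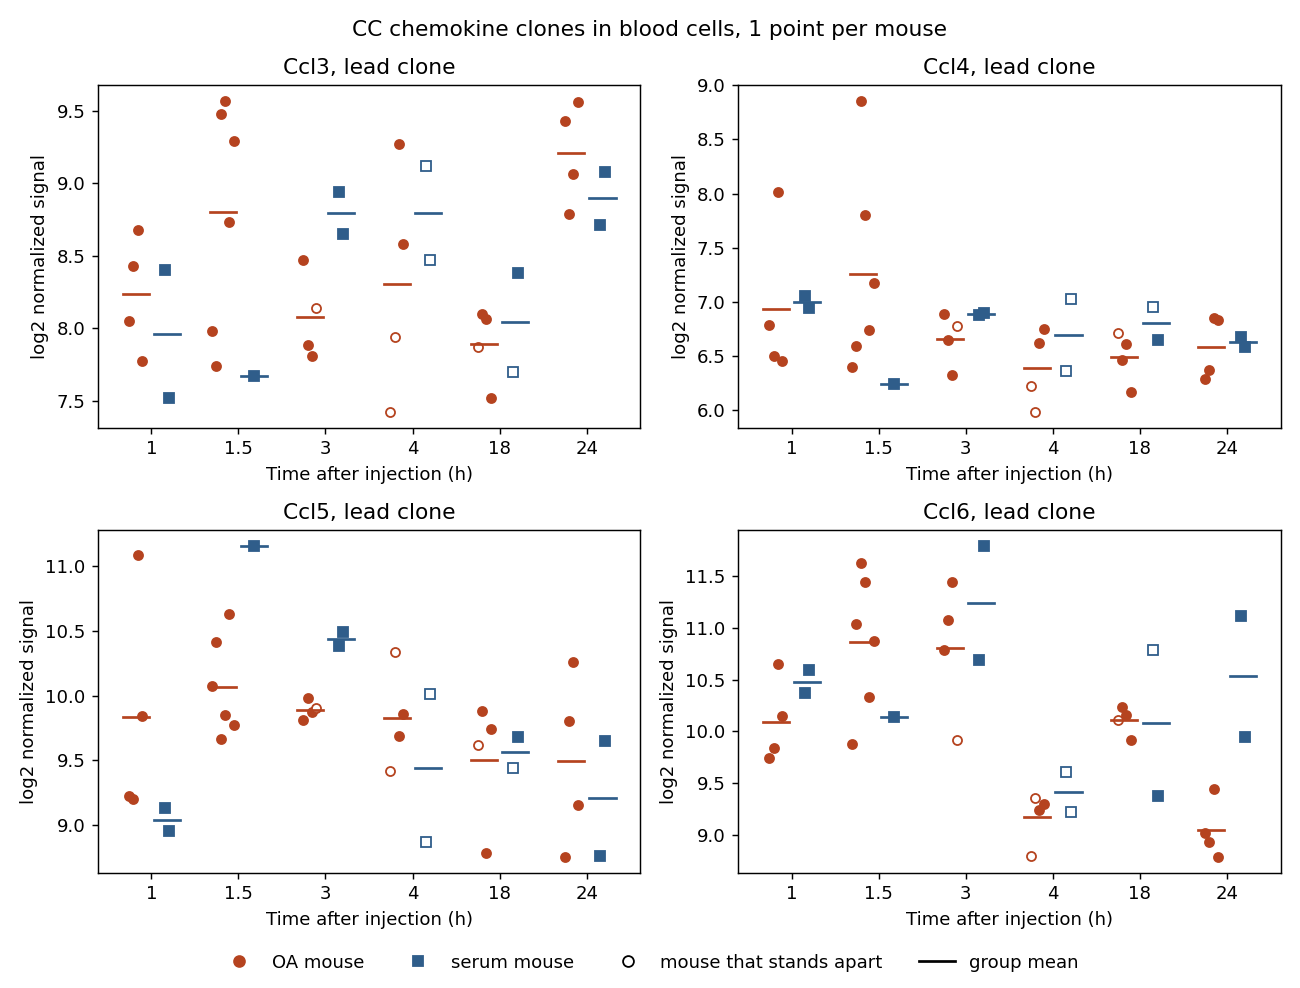
Log2 normalized signal of the lead clone of Ccl3, Ccl4, Ccl5 and Ccl6 (vertical axes) against time after injection in hours (horizontal axis, times equally spaced), with 1 point per mouse, OA mice left of serum mice, group means as bars and the 7 mice that stand apart hollow. All 4 OA mice at 24 h had Ccl6 signals of 8.79 to 9.45, below both serum mice of that time at 9.95 and 11.11, while both Ccl6 groups were low at 4 h.

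Serum mice had Ccl6 signals of 10.37 and 10.59 at 1 h, 10.14 at 1.5 h, 10.69 and 11.79 at 3 h and 9.61 and 9.22 at 4 h. They had 10.78 and 9.38 at 18 h and 11.11 and 9.95 at 24 h. The low level at 4 h was thus present in mice of both treatments, and the low level at 24 h was seen in OA mice. In OA mice the 4 h level lay below the 3 h level by a log2 difference of -1.63 (SE 0.354, adjusted p = 0.0778, limma), which did not pass the threshold of 0.05. The groups did not overlap, as for 2.44% of all clones in that direction. The difference passed in the fit without the 7 mice that stand apart, which was added after the data were seen (-1.82, SE 0.418, adjusted p = 0.0137). That fit kept OA mice 5 and 6 at 4 h, whose scores on the main axis were -6.7 and -6. Every other mouse kept scored at least 7.8, so leaving out the 7 mice does not separate the step from that axis. The second clone gave a smaller step of -0.999 in OA mice (SE 0.378, adjusted p = 0.213), -1.22 without the 7 mice (adjusted p = 0.158), and did not pass. In serum mice the same step was -1.82 (SE 0.5, adjusted p = 0.0258), in a comparison where 11.5% of all clones were called. On the second clone it was -1.11 (SE 0.534, adjusted p = 0.156). All serum mice of 4 h were below those of 3 h, as for 25.6% of clones. The step rests on 2 mice at each time, both of those at 4 h are among the 7, and without serum mouse 5 of 3 h it was -1.28 with an adjusted p of 0.229. Without serum mouse 1 or mouse 4 of 4 h the adjusted p was 0.238 and 0.0598. Without serum mouse 5 of 3 h no clone was called, and without serum mouse 1 of 4 h 6 were, against 888 with all mice and 1623 without serum mouse 4 of 4 h. This comparison of serum mice was added after the data were seen. Over the 6 times in serum mice the F test gave F = 2.89 and an adjusted p of 0.181, with 0.168% of clones called.

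Between 4 and 18 h the log2 difference in OA mice was 0.93 (SE 0.354, adjusted p = 0.203), with all 4 mice of 18 h above all 4 of 4 h, as for 2.36% of clones, and it was 0.83 without the 7 mice (adjusted p = 0.308). Between 18 and 24 h Ccl6 had a log2 difference of -1.06 in OA mice (SE 0.354, adjusted p = 0.128, or 0.0992 without the 7 mice) and of 0.45 in serum mice (SE 0.5, adjusted p = 0.865). All 4 OA mice at 24 h were below all 4 at 18 h, as for 5.13% of clones in that direction. At 24 h OA mice were below serum mice by a log2 difference of -1.48 (SE 0.433), which is 2.79-fold, with an unadjusted p of 0.00191 and an adjusted p of 0.619. The second clone gave -1.16 (SE 0.462, adjusted p = 0.649). Each clone had all 4 OA mice below both serum mice, a pattern that 10.5% of all clones showed at 24 h, and an exact permutation test of 4 against 2 mice gave p = 0.133, the smallest it can give. A difference between OA and serum mice at 24 h was therefore not shown by these tests.

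At late times (18 and 24 h) against early times (1 and 1.5 h) Ccl6 fell in OA mice by a log2 difference of -0.90 (SE 0.239, adjusted p = 0.0211), as the mean of the 2 late time groups minus that of the 2 early ones. The late mice had a mean of 9.58 ± 0.601 and the early mice one of 10.55 ± 0.676 (SD, n = 8 and 10), which differ by -0.98 since mice rather than time groups then count equally. Without the 7 mice the contrast was -0.90 (adjusted p = 0.0122). By this comparison 8.23% of all clones were called, 3.88% as lower late. Over mice, an exact permutation test of the difference in means gave p = 0.00608, two-sided. The second clone gave -0.66 (SE 0.256, adjusted p = 0.102), which did not pass. The call depended on the times at both ends, since the difference was -0.52 (adjusted p = 0.437) without 1.5 h and -0.37 (adjusted p = 0.687) without 24 h, and it was also lost without OA mouse 5 of 1 h (-0.81, adjusted p = 0.0648). In serum mice late minus early was -0.00 (SE 0.395, adjusted p = 1.0). The change in OA mice minus that in serum mice was -0.90 (SE 0.462, unadjusted p = 0.0619, adjusted p = 1.0), so the 2 changes were not shown to differ, and it was -0.55 without the 7 mice that stand apart.

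Ordered by mean, the 12 groups of Ccl6 ran as serum 3 h (11.24), OA 1.5 h (10.86), OA 3 h (10.80), serum 24 h (10.53), serum 1 h (10.48), serum 1.5 h (10.14), OA 18 h (10.11), OA 1 h (10.09), serum 18 h (10.08), serum 4 h (9.41), OA 4 h (9.18) and OA 24 h (9.05). The pooled spread of mice within a group was 0.522. One step in this order was larger than that spread, the 0.665 between serum 18 h and serum 4 h, so neighbours did not differ beyond their spread within the upper 9 groups or within the lower 3.

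**Figure D2:**
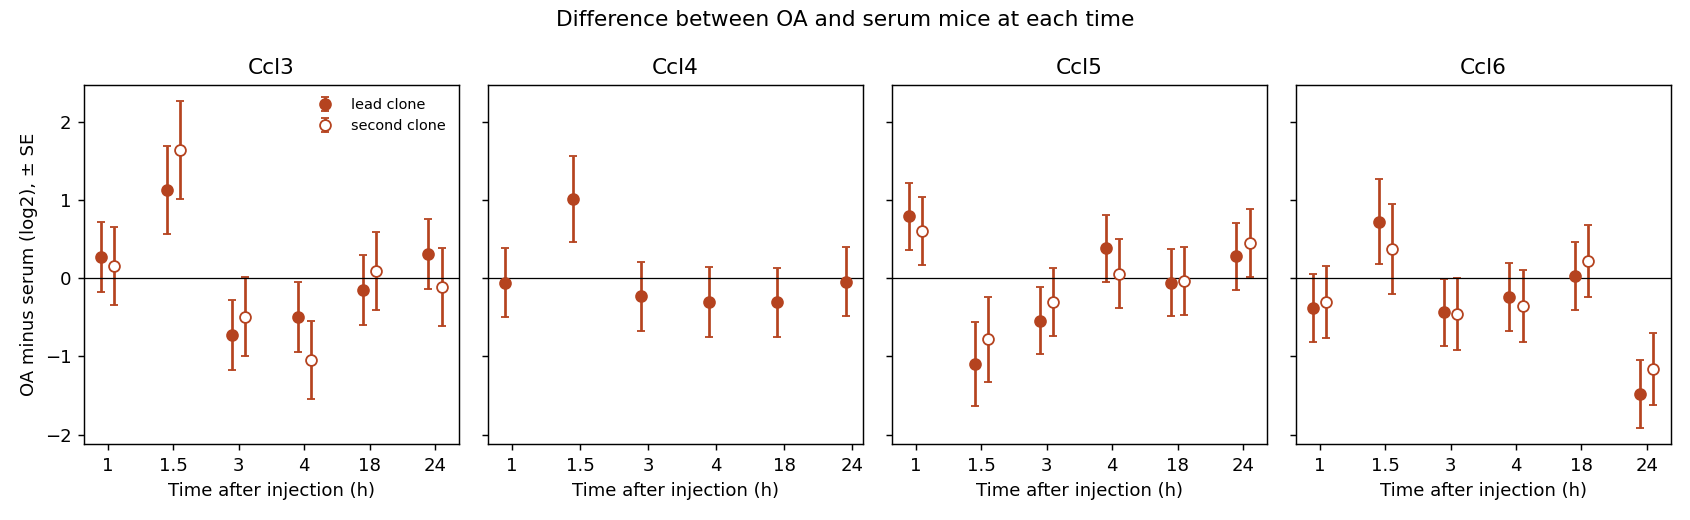
OA minus serum difference in log2 signal (vertical axis, ± SE of the limma fit) at each time in hours (horizontal axis, times equally spaced), with the lead clone filled and the second clone open, for Ccl3, Ccl4, Ccl5 and Ccl6. The lead clone of Ccl3 was at 1.13 at 1.5 h, against a single serum mouse, and that of Ccl6 was lowest at 24 h, at -1.48. Ccl4 was not well above background in any serum mouse, so the size of its differences cannot be read.

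Ccl3 showed 2 different profiles on its 2 clones, so its level is given clone by clone. The lead clone had log2 signals of 8.05, 8.43, 8.68 and 7.77 in OA mice at 1 h, and of 7.98, 7.74, 9.48, 9.57, 8.73 and 9.29 at 1.5 h. The OA mice at 3 h had 8.47, 7.88, 7.81 and 8.14, those at 4 h 7.42, 7.94, 9.27 and 8.58, and those at 18 h 7.87, 8.10, 8.06 and 7.52. All 4 OA mice at 24 h were high, at 9.43, 8.79, 9.06 and 9.56, above every OA mouse of 18 h. The step between 18 and 24 h was 1.32 in OA mice (SE 0.366, adjusted p = 0.0541), short of the threshold, where 1.64% of clones were called and 6.07% did not overlap in that direction. It passed in 9 of 54 alternative settings, with median scaling (adjusted p = 0.0397) and with arrays kept apart (adjusted p = 0.0094) among them, and missed it without the 7 mice (1.32, adjusted p = 0.0561). Erythroid markers rose over the same step, with 7 of 17 called higher and none lower in OA mice (median 0.56), where 1.45% of all clones were called higher. Their summed signal was 26366 to 36181 in OA mice at 24 h and 9102 to 18817 at 18 h, and the erythroid gene Trim10, one of the genes most like this clone, rose by 1.78 (SE 0.298, adjusted p = 0.00446). In serum mice the sums were 24026 and 27022 at 24 h and 18251 and 18650 at 18 h. The Ccl3 step of serum mice was 0.86 (SE 0.517, adjusted p = 0.817). The part of erythroid RNA in the Ccl3 step was not tested. Serum mice had 8.40 and 7.52 at 1 h, 7.67 at 1.5 h, 8.94 and 8.65 at 3 h, 9.12 and 8.47 at 4 h, 7.70 and 8.38 at 18 h, and 8.71 and 9.08 at 24 h. The serum mice of 24 h thus overlapped the OA mice of that time, with an OA minus serum difference of 0.31 (SE 0.448, adjusted p = 0.92).

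The second Ccl3 clone did not carry the high level at 24 h. It had 7.37, 7.31, 7.32 and 7.24 in OA mice and 7.38 and 7.46 in serum mice at that time, and was not well above background on any of these arrays. Its high mice were those of the early times in the OA group, with 7.56, 7.74, 9.91, 9.79, 8.84 and 9.06 at 1.5 h and 8.90 in mouse 5 at 1 h, where the other 3 OA mice had 7.21, 7.61 and 7.71. OA mice at 3, 4 and 18 h ranged from 7.32 to 8.41. The single serum mouse of 1.5 h was not well above background, at 7.17, and the OA mean at that time was at least 2.71-fold higher (OA minus serum 1.64, SE 0.625, adjusted p = 1.0). All 6 OA mice were above that mouse for both Ccl3 clones, as they were for 12.0% of all clones. Among serum mice the highest value was 9.58, in mouse 1 at 4 h, which is one of the 7 that stand apart. Late minus early in OA mice was -0.88 for this clone (SE 0.277, adjusted p = 0.0452), against 0.03 for the lead clone (SE 0.248, adjusted p = 0.952). The call of the second clone held without the 7 mice (-0.94, adjusted p = 0.0259). It was lost without 1.5 h (-0.40, adjusted p = 0.548), 18 h (-1.03, adjusted p = 0.0554) or 24 h (-0.74, adjusted p = 0.464), and narrowly with the mouse number as a block (-0.83, adjusted p = 0.0519). The 2 clones therefore gave different answers on the change of Ccl3 from early to late. Over the 6 times in OA mice the F test gave an adjusted p of 0.0583 for the lead clone and 0.0443 for the second.

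At middle times (3 and 4 h) against early times the Ccl3 clones had differences of opposite sign in OA and serum mice, none past the threshold. Middle minus early was -0.33 in OA mice (SE 0.248) and 0.98 in serum mice (SE 0.409) for the lead clone, and -0.63 in OA mice (SE 0.277) and 1.04 in serum mice (SE 0.458) for the second. The difference of these changes was -1.31 (SE 0.478, unadjusted p = 0.0106) for the lead clone and -1.67 (SE 0.535, unadjusted p = 0.00414) for the second clone. Both had an adjusted p of 1.0, and limma called 0 clones in this comparison (0.0%), with 3.00% at an unadjusted p under 0.05. Both serum mice of 4 h stand apart on the main axis of variation, mouse 1 with a score of -70.7 and mouse 4 with -38.2. Serum mouse 1 of 4 h had 9.58 on the second clone. OA mouse 7 of 3 h and OA mice 2 and 3 of 4 h stand apart too. Without the mice that stand apart no serum mouse of 4 h is left, so the serum change over both middle times cannot be fitted.

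Ccl4 was mostly not well above background. It passed in OA mouse 5 at 1 h, with a log2 signal of 8.01, in OA mice 5 and 6 at 1.5 h, with 8.86 and 7.80, and on 1 of the 2 arrays of OA mouse 2 at 3 h, whose mean was 6.89. In 9 of the 12 groups, all serum groups included, no array passed. The other OA mice had 6.79, 6.50 and 6.45 at 1 h and 6.40, 6.59, 6.74 and 7.17 at 1.5 h. From 3 h on OA mice ranged from 5.98 to 6.89, and serum mice ranged from 6.24 to 7.05 over all times. The 3 high mice were also high for the second Ccl3 clone, at 8.90, 9.91 and 9.79. No size of change can be read for Ccl4, because the lowest measurable signal was above the early OA mean of 7.13, and the late OA mice were not well above background on any of 11 arrays. Its fitted values under other settings, given in the closing section, are not sizes of change. No test of Ccl4 passed, with an adjusted p of 0.142 for late against early OA mice and 0.236 over the times.

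Ccl5 was well above background throughout, and no change over time passed the test. Its lead clone had 9.22, 9.20, 11.09 and 9.84 in OA mice at 1 h and 10.07, 10.41, 9.66, 9.85, 10.63 and 9.77 at 1.5 h. OA mice lay between 9.81 and 9.98 at 3 h, between 9.42 and 10.34 at 4 h, between 8.78 and 9.88 at 18 h and between 8.75 and 10.26 at 24 h. The OA groups overlapped one another at every step. Serum mice had 9.13 and 8.95 at 1 h, 11.16 at 1.5 h, 10.38 and 10.49 at 3 h, 8.87 and 10.01 at 4 h, 9.44 and 9.68 at 18 h, and 8.76 and 9.65 at 24 h. The highest values of the 37 mice were those of OA mouse 5 at 1 h and of the single serum mouse at 1.5 h, and the second clone had 11.03 and 10.84 in the same 2 mice. The F test over times in OA mice gave an adjusted p of 0.572 for the lead clone and 0.327 for the second. In serum mice F was 3.8 for the lead clone and 3.03 for the second, neither past the threshold. The serum difference between 1 and 1.5 h was 2.115 for the lead clone and 1.771 for the second, resting on the single mouse of 1.5 h. Late minus early was -0.46 in OA mice (SE 0.239, adjusted p = 0.224, or -0.47 with 0.19 without the 7 mice) and -0.72 in serum mice (SE 0.394, adjusted p = 0.617), and their difference was 0.26 (SE 0.46, adjusted p = 1.0). In the order of the 12 groups the one step beyond the pooled spread of 0.519 was that from the single serum mouse of 1.5 h to the next group, serum 3 h.

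No member differed between OA and serum mice by the adjusted test at any time, in any stage or averaged over the times. Averaged over the 6 times, OA minus serum was 0.06 for Ccl3 (SE 0.191), -0.04 for Ccl5 (SE 0.184) and -0.30 for Ccl6 (SE 0.185), each with an adjusted p of 1.0. In this comparison limma called 0 of 7739 clones (0.0%), while 3.44% had an unadjusted p under 0.05. At late times the Ccl6 difference was -0.73 (SE 0.306, unadjusted p = 0.0245, adjusted p = 1.0), with 0.0% of clones called and 2.84% under 0.05 before adjustment. At 18 h alone it was 0.03 (SE 0.433). Without the 7 mice the late difference was -0.38 and that at 18 h 0.73, both with an adjusted p of 1.0. At early times the Ccl3 difference was 0.70 for the lead clone (SE 0.358, unadjusted p = 0.0604) and 0.90 for the second (SE 0.401, unadjusted p = 0.0328), both with an adjusted p of 1.0. The F test of whether the OA effect varied over the times also called 0 clones (0.0%), with 3.26% under 0.05 before adjustment and adjusted p values of 1.0 for all 7 clones. With 2 serum mice at most times and 1 at 1.5 h, standard errors at a single time were 0.431 to 0.559 for the lead clones. Differences well beyond 1 SE did not pass either, as for Ccl6 at 24 h (-1.48, SE 0.433, adjusted p = 0.619, limma).

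The clones of Ccl5 and of Ccl6 agreed over the 37 mice and those of Ccl3 agreed less. Pearson's r between the clones was 0.929 for Ccl5 (Spearman's rho 0.899) and 0.908 for Ccl6 (rho 0.898), with an adjusted permutation p of 0.000105 each, over 21 pairs of clones. Before adjustment both had a permutation p of 1e-05, the smallest that these permutations can give. Without the 2 mice farthest from the median, r was 0.903 and 0.885. For Ccl3 r was 0.45 (rho 0.199, adjusted permutation p = 0.0113 for r and 0.384 for rho). The 4 OA mice of 24 h and OA mouse 5 of 4 h were high on the lead clone and low on the second. So were both serum mice of 24 h, at 8.71 and 9.08 on the lead clone and 7.38 and 7.46 on the second. Between genes, the second Ccl3 clone and Ccl4 had r = 0.67 (rho 0.496, adjusted permutation p = 0.00056 for r and 0.0111 for rho). This was 0.819 in the 26 OA mice and -0.116 in the 11 serum mice, a difference that was not tested, and 0.401 without the 2 mice farthest from the median. The relation thus rests in large part on a few OA mice of 1 and 1.5 h, the ones with Ccl4 above background. Over the 37 mice Ccl6 correlated with Ccl4 (r = 0.493, rho 0.434, adjusted permutation p = 0.00535 for r and 0.0271 for rho). It also correlated with the second Ccl3 clone (r = 0.482, rho 0.514, adjusted permutation p = 0.0091 and 0.00882). Without the 2 farthest mice r was 0.418 and 0.312. The lead Ccl3 clone correlated with Ccl4 (r = 0.463, rho 0.391, adjusted permutation p = 0.0091 and 0.0449, r = 0.416 without 2 mice). With Ccl6 no correlation of that clone was shown (r = -0.036, rho -0.0555, adjusted permutation p = 0.83 and 0.771). The relations with Ccl4 include many values near background. Ccl5 and Ccl6 had r = 0.216 for their lead clones (rho 0.215, adjusted permutation p = 0.301 for r and 0.364 for rho). The permutations shuffled values over all 37 mice without regard to treatment and time, so differences between groups can enter these p-values. Within groups, after each group's mean was removed, r was 0.619 for the second Ccl3 clone with Ccl4 and 0.0194 for Ccl5 with Ccl6. For Ccl6 it was 0.466 with Ccl4 and 0.415 with the second Ccl3 clone. For the lead Ccl3 clone it was 0.591 with Ccl4 and 0.158 with Ccl6. No p-value was computed within groups.

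**Figure D3:**
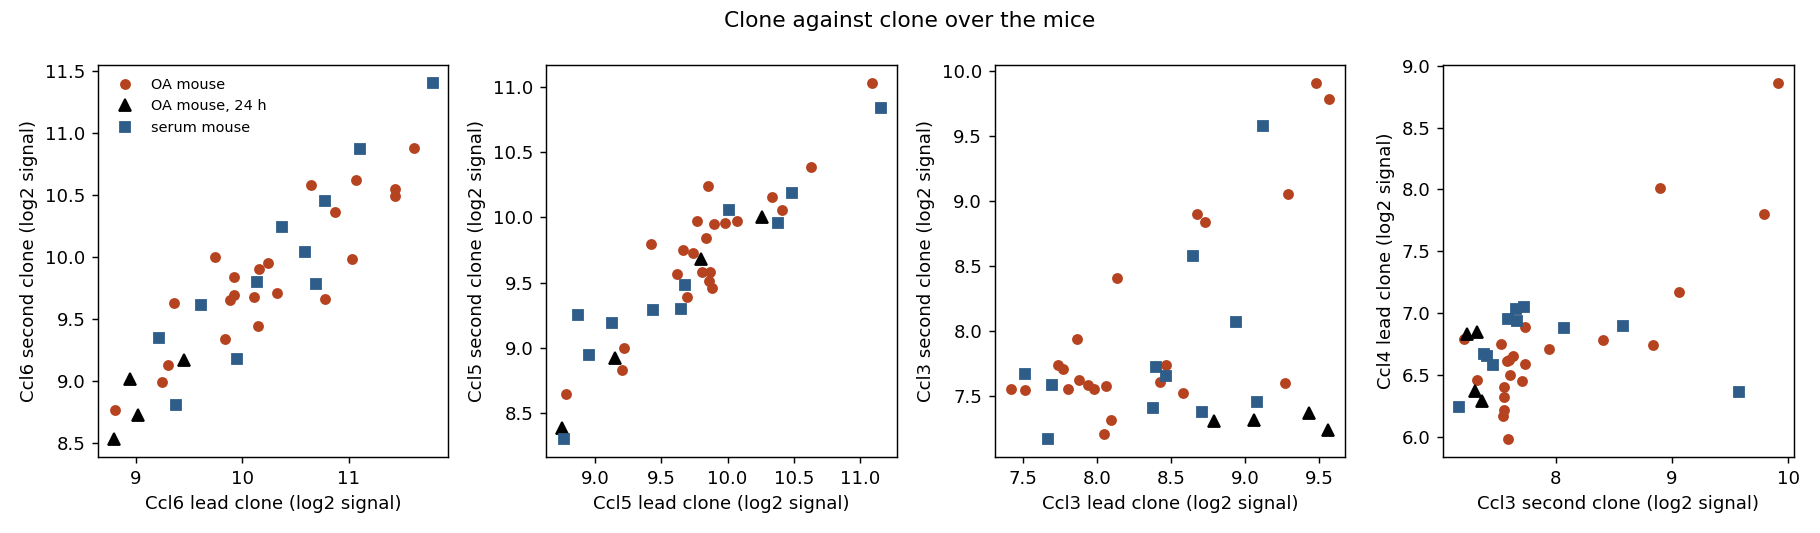
Log2 normalized signal of one clone against another, with 1 point per mouse (OA mice as circles, OA mice of 24 h as black triangles, serum mice as squares), for the 2 clones of Ccl6, of Ccl5 and of Ccl3 and for the second Ccl3 clone with Ccl4. The Ccl6 and Ccl5 clones follow each other, while the 4 OA mice of 24 h lie at 8.79 to 9.56 on the lead Ccl3 clone and at 7.24 to 7.37 on the second. The serum mice of 24 h lie likewise, at 8.71 and 9.08 on the lead clone and at 7.38 and 7.46 on the second.

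The genes whose values over the 37 mice were most like each member differed between the 4 genes. They were taken from 3196 or 3197 genes well above background on at least 50% of the arrays, and the correlations are a description over mice that share groups, times and arrays. For Ccl6 they were Il1b (r = 0.883), a cytokine gene of activated myeloid cells, Tspo (0.856), a mitochondrial outer membrane protein, Slpi (0.842), a protease inhibitor of leukocytes, Adam8 (0.832), a leukocyte surface metalloprotease, and Pygl (0.829), a glycogen phosphorylase. Within groups these correlations were 0.732 to 0.825. For Ccl4 they were Mafk (0.774), a small Maf transcription factor, Acod1 (0.728), which makes itaconate in activated macrophages, Arid4a (0.689), Dennd3 (0.685) and Fosl2 (0.681), an AP-1 subunit. The second Ccl3 clone was most like Ints6 (0.752), Lilrb4a, Efhd2 and Mtcp1 (0.75 each) and Dusp10 (0.747), a phosphatase of MAP kinases. The lead Ccl3 clone had among its 5 most alike genes Bckdhb (0.632), Ctla2a (0.591), Hspa5 (0.57) and Trim10 (0.568), so the 2 Ccl3 clones shared none of their 5 genes. For Ccl5 they were Bex3 (0.704), Cd3d (0.689), a chain of the T cell receptor complex, Lat (0.678), an adaptor of T cell receptor signalling, Farp1 (0.658) and Zdhhc6 (0.656), and Bex3, Cd3d and Lat also led for its second clone.

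Il1b and 4 of 9 neutrophil markers fell, as Ccl6 did, at late against early times in OA mice. Il1b was 7.50, 8.08, 8.73 and 10.70 in OA mice and 10.11 and 13.35 in serum mice at 24 h, and it fell at late against early times in OA mice by a log2 difference of -2.45 (SE 0.539, adjusted p = 0.00661). Of 9 neutrophil markers measured out of a list of 19, 4 fell at late against early times in OA mice and none rose, with a median of -0.96 over the 9, beside a median of -0.01 over all clones. They were Ltf (-0.90), Clec4d (-1.76), Il1r2 (-0.96) and Slpi (-1.44), where 3.88% of all clones were called lower. The neutrophil markers also had a negative median in serum mice, -0.705 at late against early times. There 1 of the 9 was called lower and none higher, and 1 of 7739 clones was called lower. In the same serum comparison Il1b had a difference of -0.69 (SE 0.889) and Ccl6 one of -0.0015 (SE 0.395). The summed linear signal of the 9 markers was 3435 to 25840 in the 8 late OA mice, against 7389 to 46966 in the 10 early OA mice. At 24 h it was 3435 to 5345 in OA mice. The serum mice of 24 h had sums of 3148 and 27644, with Ccl6 signals of 9.95 and 11.11, both above all 4 OA mice. Serum mouse 4 of 18 h had a sum of 4985 with a Ccl6 signal of 9.38. Serum mouse 1 of 18 h, one of the 7 that stand apart, had 32321 with 10.78. None of the 9 was called between 3 and 4 h or between 18 and 24 h in OA mice, where 0.0% and 1.64% of all clones were. Their median differences over these steps were -0.21 and -0.85. Their sums in OA mice overlapped between 4 h (5142 to 12796) and 3 h (8250 to 15501). The highest sum of OA mice at 18 h, 25840 in mouse 2, went with a Ccl6 signal of 10.11. That mouse is one of the 7 that stand apart. No neutrophil marker was at background on every array. The part of neutrophil RNA, and of RNA of any other cell type below, in the results for the members was not tested.

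**Figure D4:**
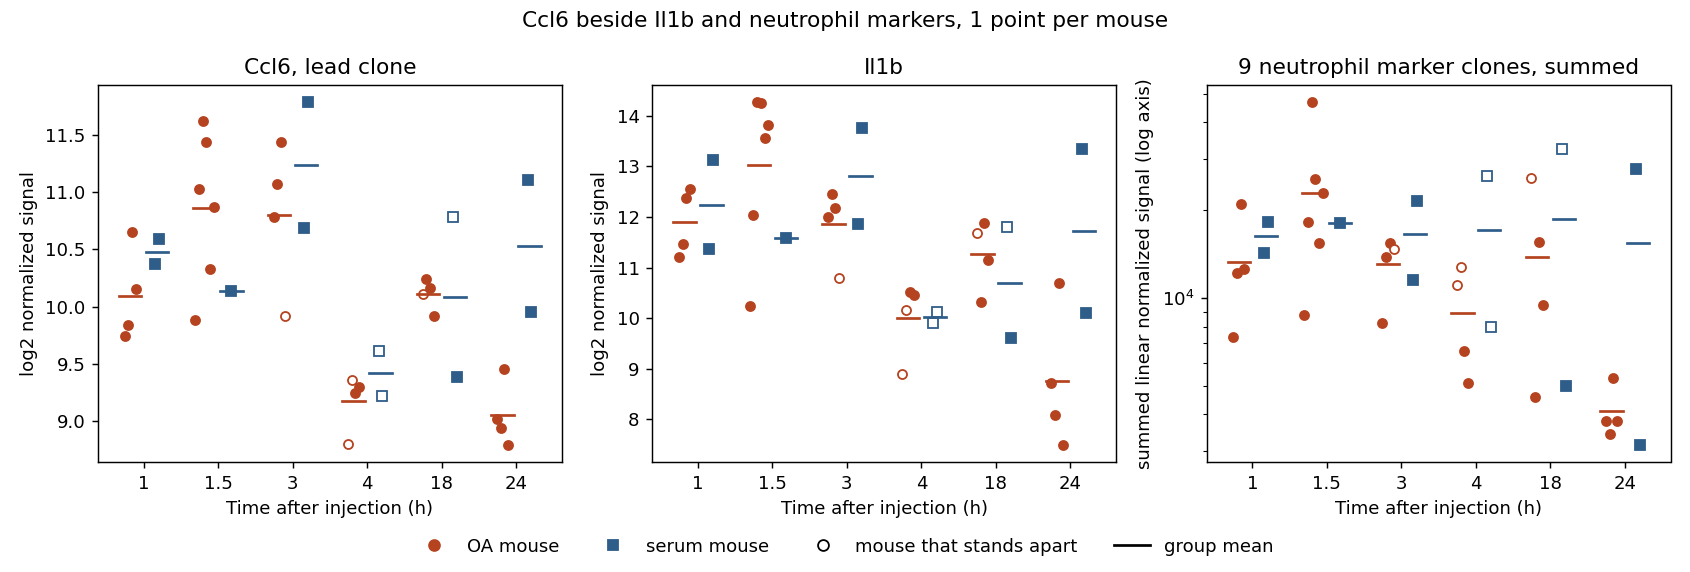
Log2 normalized signal of Ccl6 and of Il1b, and the summed linear signal of 9 neutrophil marker clones on a log axis, against time after injection in hours (times equally spaced), with 1 point per mouse, OA mice left of serum mice and group means as bars. At 24 h the summed neutrophil signals of OA mice were 3435 to 5345, and at 4 h, where Ccl6 was also low, they were 5142 to 12796.

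The lists of other cell types are given in the same way, for late against early OA mice, where 4.35% of all clones were called higher and 3.88% lower. In lists this short, 1 or 2 called genes show nothing particular to a list. Of 13 monocyte and macrophage markers, Ctsb rose at late against early times in OA mice (0.92, adjusted p = 0.019) and none fell, with a median of 0.10, and their summed signal was 4557 to 9276 late and 3948 to 8582 early. Of 17 erythroid markers, 5 rose late in OA mice and none fell, with a median of 0.29, namely Mpp1 (1.67), Alas2 (1.43), Trim10 (0.78), Rhd (0.69) and Car1 (0.57), of which Rhd and Car1 were well above background on 4 and 1 arrays. The summed signal of the 15 that never reached the scanner's ceiling was 9102 to 36181 in late OA mice and 3638 to 22656 in early ones. Of 14 markers of natural killer and cytotoxic T cells, which make Ccl5, Cd8a rose (0.49) and none fell, with a median of -0.06 and sums of 5663 to 13256 late and 7261 to 16491 early. Of 17 T cell markers, 2 fell and none rose, Cd2 (-0.38) among them, with a median of -0.14 and sums of 3931 to 5349 late and 4361 to 6757 early. Of 11 B cell markers, Cd37 fell (-0.72), with sums of 9409 to 17061 late and 9336 to 13941 early. Of 6 platelet markers, Itga2b fell (-0.74), and the sums over the 4 that never reached the scanner's ceiling were 2532 to 4132 late and 2085 to 5086 early.

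Among the chemokine receptors described here, Ccr8 fell at middle against early times in OA mice (-0.56, SE 0.174, adjusted p = 0.0438), where 9.21% of all clones were called. Ccr1, a receptor of Ccl3, Ccl5 and Ccl6, was not called in any of these comparisons. Its mean in OA mice was 8.42 ± 0.849 at 1.5 h and 7.10 ± 0.395 at 24 h (SD, n = 6 and 4), and at 24 h it was not well above background on any of the 6 arrays. Late minus early in OA mice was -0.68 for Ccr1 (SE 0.344, adjusted p = 0.205). Ccr3 had no clone on the array. None of the 10 chemokine receptors measured passed late against early.

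Of 11 other CC chemokine ligands measured, 1 fell and none rose at late against early times in OA mice, with a median of 0.09. It was Ccl25 (-1.14, SE 0.263, adjusted p = 0.00884), known for guiding thymocytes and gut lymphocytes. At middle against early times Ccl25 (-0.99), Ccl22 (-0.82) and Ccl7 (-0.41) fell, and Ccl7 was well above background on 5 of 49 arrays. Ccl2, the main monocyte attractant, was not well above background on any array, and Ccl9, the coding gene next to Ccl6, was so on 13. Late minus early in OA mice was 0.11 for Ccl9 (SE 0.144, adjusted p = 0.653). Of 14 ligands of the other chemokine families, Cxcl15 rose (0.78) and Cxcl5 fell (-0.74), with a median of 0.12. Of 9 cytokines that induce or accompany CC chemokines, Il1b and Il1rn (-1.50) fell and none rose, with a median of -0.36. Of 16 transcription and RNA stability regulators, Junb fell (-2.41) and none rose, with a median of -0.36. Of 24 genes of receptor signalling and cell movement, Crk rose (0.50) and Grk2 fell (-1.19), with a median of -0.06. For all clones late minus early in OA mice had a median of -0.01, with 337 higher and 300 lower, and averaged over the times no gene of any of these lists differed between OA and serum mice.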

How the data were processed

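The deposited scanner files hold 1 linear spot intensity per spot and array (49 arrays of 9984 spots), read from 33P images with BZScan per the labels. The authors also deposited a table of quantile-normalized log2 values of the same arrays, which gave the clone names and served as an alternative; its values differed from those computed here by a median of 0.0718. Intensities of the 7771 clone spots were log2 transformed, quantile normalized and averaged per clone (7739 clones) and per mouse (37 mice). A limma fit (version 3.58.1, R 4.3.3) of 12 group means gave the contrasts and F tests, with Benjamini-Hochberg adjustment over all clones and a threshold of 0.05. The scripts also used Python 3.11.15 and scipy 1.17.1. The rule for signals well above background was set after the data were seen. In simulated data for late minus early OA mice with 7739 clones, 87% of 100 clones changed by a log2 size of 1 and 99% of those changed by 2 were recovered, and 12 unchanged clones were called. The simulation drew normal errors independently for each clone and mouse, with no shared axis of variation and no other change over time. Its recovery and false calls therefore need not hold for the measured data. The number of mice limits the precision, with 1 or 2 in each serum group. The limma p-values set a difference against the spread between mice within groups, estimated over all groups. The single serum mouse of 1.5 h adds nothing to that estimate. The members, gene lists and named genes (all members, list genes past the threshold, and the 5 genes most like each clone) were chosen with earlier results of these data known. By the series' design text the serum group of 1.5 h and the OA group of 3 h each had 1 further animal, which is not analysed here. Mouse numbers were not used to pair the samples in the main fit. Deviations from the group means had a median correlation of -0.000599 over 76 pairs of mice with the same number in different groups. These correlations ranged from -0.561 to 0.633, and pairs with different numbers had a median of 0.00585. With so wide a range the medians cannot exclude that some numbers pair mice. Values of a few list genes and alike genes are not reported here.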

Additional observations from a re-analysis of the deposited data

How the results depend on the processing

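Over 120 results on the members, 6543 recomputations under 58 settings left 6441 with their direction and side of the threshold, or within the spread, while 10 lost a call, 35 gained one, 1 reversed with a call and 56 moved. The Ccl6 change over times in OA mice passed in every setting run. Its late minus early difference in OA mice was -0.52 without 1.5 h, -0.37 without 24 h and -0.66 on the second clone, none of which passed, and -0.998 to -0.808 with 1 mouse left out. For Ccl3 this difference was -0.58 without normalization, -0.25 without 1 h, -0.63 without 24 h and -0.88 on the second clone, a reversed direction that passed (adjusted p = 0.0452). Without normalization it was -1.13 for Ccl4 and -1.07 for Ccl5, where the median of all clones itself moved by -0.58, and relative to that median it was -0.94 for Ccl6, -0.55 for Ccl4, -0.50 for Ccl5 and -0.01 for Ccl3. The late OA minus serum difference without normalization was -0.41 for Ccl3, -0.40 for Ccl5 and -1.21 for Ccl6 (adjusted p = 0.0387), beside a median of -0.54, and for Ccl6 it was 0.027 without 24 h. Averaged over times, OA minus serum was -0.16 for Ccl3, -0.19 for Ccl4 and 0.17 for Ccl5 without 1.5 h, and -0.18 for Ccl4 without normalization. The late minus early change of Ccl5 in OA mice minus that in serum mice was -0.46 without normalization and -0.68 without 1.5 h. The F of Ccl3 over times in OA mice was 4.33 with median scaling, 4.54 without normalization, 5.21 with arrays kept apart, 4.06 without the 7 mice that stand apart, 5.66 without 4 h and 4.32 on the second clone, each past the threshold, and 2.97 to 5.26 with 1 mouse left out. Without normalization F was 4.56 for Ccl4 and 3.87 for Ccl5. Late against early OA mice, 637 clones were called with all mice, 4981 without normalization, 956 with arrays kept apart, 186 without spots of quality score 0 (2257 clones tested), 1363 without the 7 mice, 1 once the mice of 1.5 h were left out, 1298 once those of 18 h were, and 8 once those of 24 h were. With 1 mouse left out the count was 256 to 912, and it was lowest without OA mice 5 (256) or 6 (330) of 1 h, mouse 5 of 18 h (371), or mice 2 (340) or 6 (358) of 24 h. Of these calls 52.9% were higher late, against 65.7% with median scaling, 60.6% without 18 h and 0.442% without normalization. The causes of these changes were not tested. With the mouse number as a block, Ccl6 late minus early was -1.002 (adjusted p = 0.0056), its 4 h minus 3 h step in OA mice was -2.05 (adjusted p = 0.0235) and 781 clones were called, but the numbers are not known to pair mice. Signals of Ccl4 and of the second Ccl3 clone lay near background, which limits the size of any change that can be read from them. The Ccl4 values above show how the fit moved and are not sizes of change.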
